A study of Xenopus laevis x Xenopus muelleri with 8 samples.

Results

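Actin filaments and the myosin motors that pull on them were followed through 81 of the 11485 probe sets measured on ovary arrays of hybrid Xenopus frogs. A probe set is a group of short array probes aimed at 1 transcript. Members were taken by gene name alone, from probe sets with a single listed symbol. The names were those of actins, actin-related proteins, Arp2/3 subunits, capping proteins, cofilins, profilins, alpha-actinins, vinculin, plastin, transgelins, calponins, smoothelins, tropomyosins, troponins and myosin heavy and light chains. They covered 70 of the 5790 gene symbols on the array, or 58 genes once the endings .L and .S were dropped. These endings mark the homeologs, the 2 copies that X. laevis carries of many genes. Talin, filamin, ezrin, moesin, spire and gelsolin were sought by the same rule, and none was found under a single symbol, so they were not analysed here. A probe set for the Arp2/3 subunit arpc3.L was left out because it also listed another symbol.

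The frogs were offspring of Xenopus laevis mothers from the Cape of South Africa and Xenopus muelleri fathers from Swaziland. They were raised from eggs under standard conditions, and ovaries were removed at sexual maturity. The comparison was between 4 normal and 4 sex-reversed ovaries, 1 array each, named in the titles as biological replicates. The sources used here say neither how sex was reversed nor what the animals' genetic sex was.

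Sex-reversed replicate 4 carried a source name that said normal, although its title and description said sex-reversed, and it was grouped by its title. The source names of all 8 arrays said testis, while every other label said ovary. Of the oocyte and ovary marker genes, 8 of 12 were measured, and 7 of their 8 probe sets lay above the upper quartile on every array. The testis and sperm list had 3 of 13 genes measured, at list means of 2.96 to 3.70 over the arrays, below every array's lower quartile of 3.99 to 4.05. Of its 4 probe sets, 2 lay below the lower quartile on every array. Those of spag6.L and tekt1.L did not, and reached up to 4.65 and 4.39. Array medians were 6.0 to 6.04. Values are log2 expression, so a difference of 1 is a 2-fold change. The precision of every value is limited by the number of arrays.

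Actin monomers join into filaments, which profilin feeds, the Arp2/3 complex branches, capping protein stops and cofilin takes apart. Type II myosin, built of heavy and light chains, slides along filaments to make tension. Alpha-actinin crosslinks the filaments, and tropomyosin lies along them. In the ovary these proteins serve different cells: the oocyte, whose cortex and large nucleus are rich in actin, and the contractile smooth muscle cells of the follicle wall. Troponins and the skeletal and cardiac myosins and actins belong to striated muscle. RNA came from whole ovary, so fewer cells of a type and less RNA per cell cannot be told apart.

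No actin or myosin probe set differed between sex-reversed and normal ovary at an adjusted p of 0.05 in limma (0 of 81, lowest adjusted p = 0.733, against 0% of all probe sets). At an unadjusted p of 0.05 in limma, 5 of 81 did, or 6.17%, against 6.38% of all 11485 probe sets. These were the actin gene actb.L, the capping protein gene capza1.L, the plastin gene lcp1.S and the transgelin gene tagln.L, all with lower means in sex-reversed ovary, and the myosin heavy chain gene myh15.L, with a higher mean. The lower side held 4 of 81 against 3.17% of all probe sets, and the higher side 1 of 81 against 3.21%. Groups did not overlap in 5 of 81 probe sets, or 6.17%, against 4.06% of all. They were lower in 4 of these, against 1.96% of all probe sets, and higher in 1, against 2.1%. Sex-reversed means were above normal means in 39 probe sets and below in 42. The median difference was −0.02 (log2), against 0.00 over all probe sets.

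For most members the data bounded the difference well. In 65 of 81 probe sets the 95% interval stayed inside a 2-fold change up or down, or 80.2%, against 78% of all. Over all 81 probe sets, half-widths of the 95% intervals had a median of 0.51 (log2). Only acta1.S had a mean difference beyond 2-fold.

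**Figure D1:**
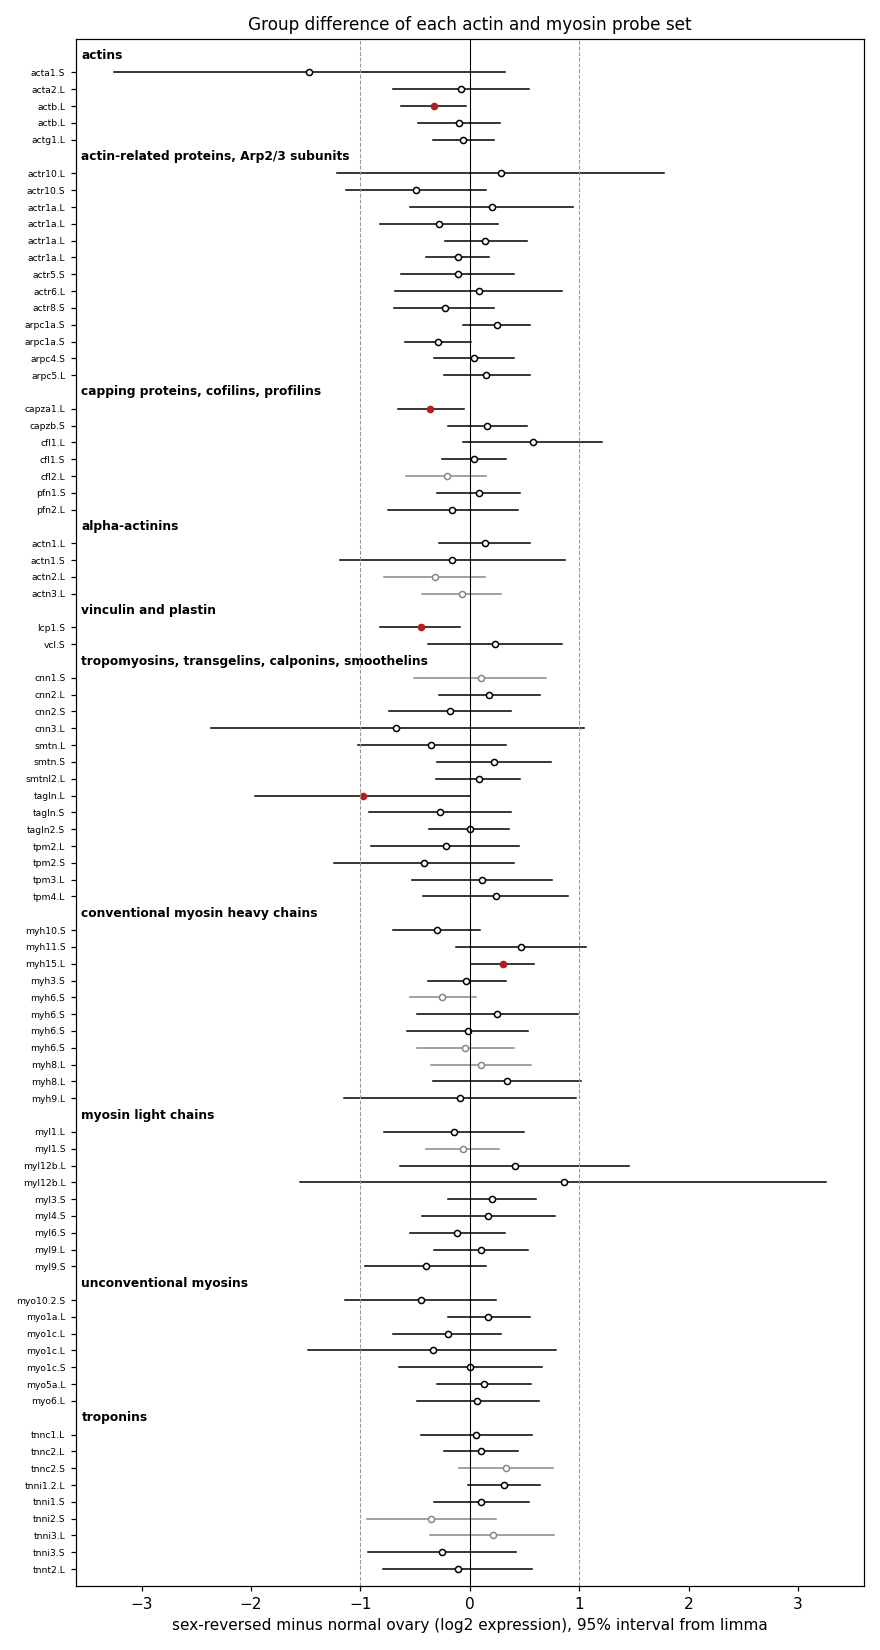
Difference between sex-reversed and normal ovary (log2, horizontal axis) for each of the 81 probe sets, grouped by role, with 95% intervals from limma on 4 against 4 arrays. Filled red points are the 5 with an unadjusted p under 0.05, grey marks the 11 below the lower quartile on every array, and dashed lines mark a 2-fold change; 65 intervals stay between them.

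The count at the unadjusted threshold depended on single arrays. Without sex-reversed replicate 4, the array with conflicting labels, 10 of 81 members reached it, or 12.3%, with 4 higher and 6 lower, against 6.93% of all probe sets; none passed the adjusted threshold (lowest adjusted p = 0.605 in limma). The 5 genes above were among these 10. Groups then did not overlap in 9 of 81, or 11.1%, against 8.26% of all. Without normal replicate 2 the count was 1 (a probe set of arpc1a.S), or 1.23% against 6.79% of all probe sets. Without sex-reversed replicate 3 it was also 1 (tnni1.2.L), against 5.80% of all. None of the 5 genes above remained in either of these fits. The count was 2 without sex-reversed replicate 1 (cfl1.L and lcp1.S), or 2.47% against 5.11% of all. It was 3 without sex-reversed replicate 2 (capza1.L, cfl1.L and lcp1.S), or 3.70% against 5.35%. Without sex-reversed replicate 1, groups did not overlap in 9 members, against 6.36% of all probe sets.

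Actins form the filament itself, and all 5 of their probe sets had lower means in sex-reversed ovary, by amounts that were mostly within the spread between arrays. The cytoplasmic actin gene actg1.L measured 11.57, 11.71, 11.70 and 11.54 in normal replicates 1 to 4 and 11.58, 11.66, 11.44 and 11.60 in sex-reversed replicates 1 to 4. The groups overlapped, and the difference was −0.06 ± 0.12 (SE). This was among the steadiest members, with 0.26 (log2) between the highest and lowest of 8 arrays.

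For actb.L, the other cytoplasmic actin, 2 probe sets both had lower means in sex-reversed ovary, and the groups overlapped in 1 of them. The one whose identifier ends in _x_at, a suffix Affymetrix uses where some probes also match other transcripts, measured 5.61, 5.71, 5.60 and 5.41 in normal ovary. In sex-reversed ovary it measured 5.26, 5.20, 5.16 and 5.39. The groups did not overlap, though replicate 4 of the normal group and replicate 4 of the sex-reversed group nearly met, and the difference was −0.33 ± 0.13 (SE; unadjusted p = 0.0337, adjusted p = 0.767 in limma). The second actb.L probe set measured 9.69, 10.18, 9.68 and 9.86 in normal and 9.80, 9.93, 9.78 and 9.51 in sex-reversed ovary. Here the groups overlapped, with a difference of −0.10 ± 0.17 (SE) whose 95% interval of −0.47 to 0.28 took in the value of the first.

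The smooth muscle actin gene acta2.L, which marks contractile cells, averaged 9.18 ± 0.45 over the normal and 9.10 ± 0.40 over the sex-reversed arrays (SD, n = 4 each). Its highest values, 9.82 and 9.56, came from replicate 4 of each group. The skeletal muscle actin gene acta1.S measured 3.37, 6.57, 5.97 and 3.0 in normal ovary and 3.15, 4.01, 2.86 and 3.02 in sex-reversed ovary. Only normal replicates 2 and 3 were high, and the other 2 normal arrays lay among the sex-reversed values. The difference of −1.47 ± 0.78 (SE; adjusted p = 0.806 in limma) was −0.85 without normal replicate 2 and −2.04 without normal replicate 4. Other genes of skeletal and heart muscle, 8 measured of 21 listed, had list means of 4.52 and 4.39 on those 2 arrays and 4.37 to 4.64 over all arrays. Of their 13 probe sets, 2 reached an unadjusted p of 0.05 in limma, against 6.38% of all probe sets. These were the dim myf5.L (−0.57 ± 0.18) and 1 of ckm.L (−0.47 ± 0.18, SE), both lower without overlap. The other ckm.L probe sets were at −0.12 and 0.11. The part of these genes in the acta1.S difference was not tested.

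Of the Arp2/3 complex, which starts new filaments as branches, 4 probe sets of 3 subunit genes were measured, all bright. Those of arpc1a.S moved in opposite directions. The one ending in _a_at, a suffix for probes shared by transcripts of 1 gene, gave 9.95 to 10.10 on the 4 arrays of normal ovary and 10.35, 10.43, 10.28 and 10.06 in sex-reversed ovary. The one ending in _at gave 9.62, 9.42, 9.80 and 9.64 in normal and 9.32, 9.38, 9.39 and 9.22 in sex-reversed ovary. The first was higher in 3 of the 4 sex-reversed arrays than in any normal array (difference 0.25 ± 0.13, SE), and the second was lower in all 4 (−0.29 ± 0.13, SE). Neither reached an unadjusted p of 0.05 over all 8 arrays in limma (0.0979 and 0.0573), and the 2 probe sets together gave no common direction for this gene. The subunit genes arpc4.S and arpc5.L differed by 0.04 ± 0.16 and 0.15 ± 0.18 (SE).

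The other actin-related proteins carry the actin fold but work elsewhere. Products of actr1a and actr10 belong to dynactin, the partner of the dynein motor, and those of actr5, actr6 and actr8 to chromatin remodelling complexes. The 4 probe sets of actr1a.L split 2 and 2, from −0.28 to 0.20. The values of actr10.L were 5.56, 3.99, 4.65 and 5.37 in normal and 5.76, 6.30, 5.50 and 3.14 in sex-reversed ovary. Sex-reversed replicate 4 was the lowest of all 8 arrays, while the other 3 sex-reversed arrays were near or above the highest normal one. Over all arrays actr10.L differed by 0.29 ± 0.66 (SE), and without sex-reversed replicate 4 by 0.96 ± 0.40 (SE; unadjusted p = 0.0426, adjusted p = 0.717 in limma). The chromatin-linked genes differed by −0.11 for actr5.S, 0.08 for actr6.L and −0.23 for actr8.S.

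Capping protein is a pair of an alpha and a beta subunit that closes the fast-growing filament end. Mean differences of the subunit genes had opposite signs, with overlap of the groups for the beta subunit. The alpha subunit gene capza1.L measured 7.66, 7.94, 7.98 and 7.86 in normal and 7.39, 7.54, 7.47 and 7.63 in sex-reversed ovary. The groups did not overlap, but normal replicate 1 and sex-reversed replicate 4 nearly met. The difference was −0.36 ± 0.13 (SE; unadjusted p = 0.0268, adjusted p = 0.746 in limma) and stayed between −0.42 and −0.32 with any 1 array left out. Its unadjusted p in limma did not stay under 0.05 in those fits. It ran from 0.0164 without normal replicate 1 to 0.0692 without sex-reversed replicate 1. The beta subunit gene capzb.S differed by 0.16 ± 0.16 (SE), and its groups overlapped.

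Cofilin severs old filaments, and 1 of its genes had an uneven pattern. The values of cfl1.L were 9.47, 9.79, 9.67 and 9.72 in normal and 9.62, 9.83, 10.72 and 10.78 in sex-reversed ovary. Sex-reversed replicates 3 and 4 stood above all other arrays, and replicates 1 and 2 lay at normal levels. The difference was 0.58 ± 0.28 (SE; unadjusted p = 0.0692, adjusted p = 0.788 in limma). Its homeolog cfl1.S stayed between 11.44 and 11.68 on all 8 arrays, the smallest range of any member at 0.24 (log2). The muscle cofilin gene cfl2.L was dim, at 3.42 in normal and 3.21 in sex-reversed ovary. The profilin genes pfn1.S and pfn2.L, whose products deliver actin monomers, differed by 0.08 ± 0.17 and −0.16 ± 0.26 (SE).

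Plastin and vinculin tie filaments to each other and to the membrane. The L-plastin gene lcp1.S, a filament bundler best known from white blood cells, measured 4.04, 4.23, 4.18 and 3.96 in normal and 3.97, 3.71, 3.40 and 3.53 in sex-reversed ovary. Sex-reversed replicate 1 lay just above the lowest normal array, and the other 3 lay below all normal arrays. The difference of −0.45 ± 0.16 (SE) had the smallest unadjusted p of all members (0.0203; adjusted p = 0.733 in limma). Values were close to the lower quartile of the arrays, and detection above background was not tested. Leukocyte genes, 5 measured of 12 listed, had list means of 3.56 to 4.22 in normal and 3.72 to 4.12 in sex-reversed ovary, and 3 of their 6 probe sets were lower. Of these 6, 1 reached an unadjusted p of 0.05 in limma, against 6.38% of all probe sets. It was the T cell receptor chain gene cd247.S, which was higher (0.64 ± 0.21, SE). Their part in the lcp1.S result was not tested. The vinculin gene vcl.S differed by 0.23 ± 0.27 (SE). Of the alpha-actinins, which crosslink filaments, the non-muscle genes actn1.L and actn1.S differed by 0.14 ± 0.18 and −0.16 ± 0.45 (SE). The muscle genes actn2.L and actn3.L were below the lower quartile on every array.

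**Figure D2:**
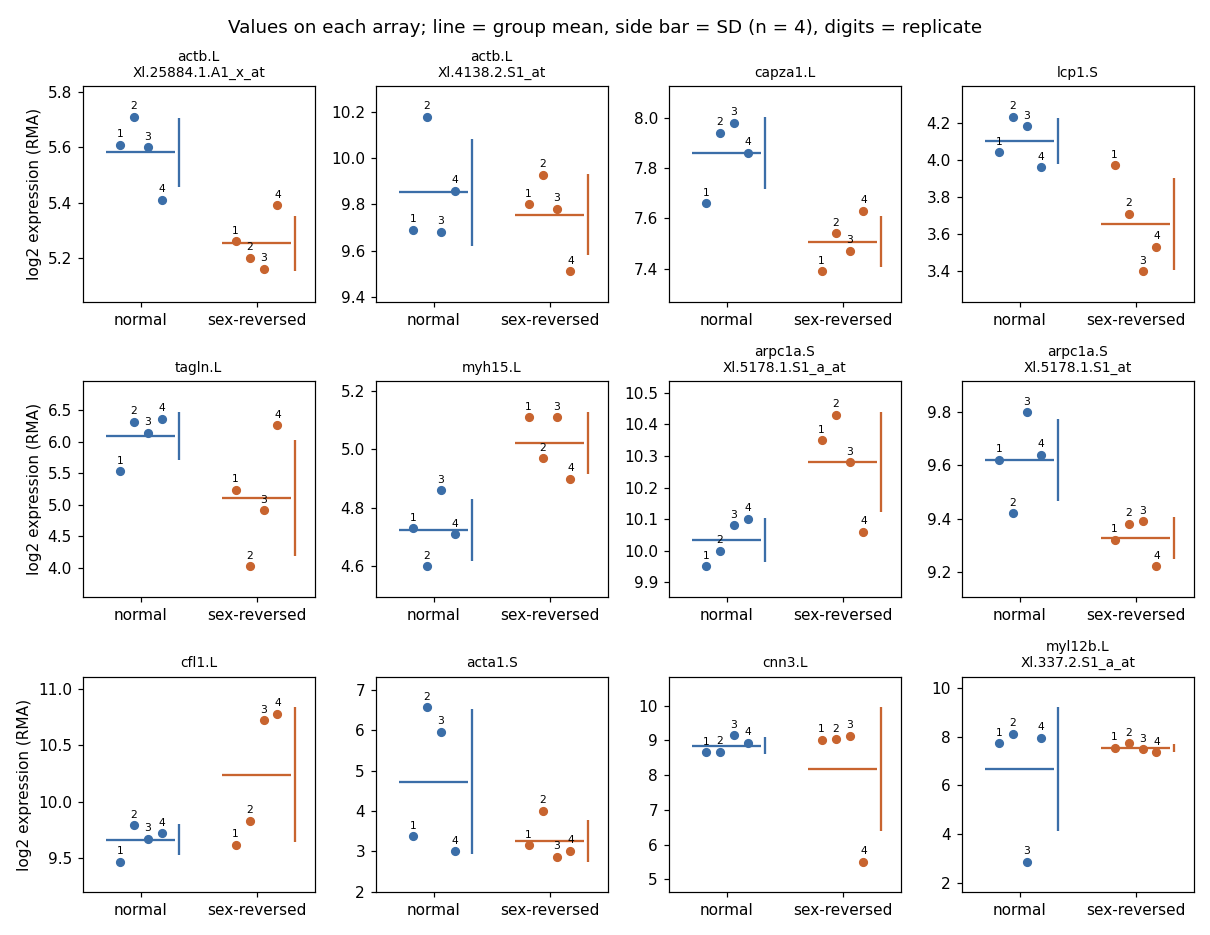
Log2 expression (vertical axis, a separate scale for each panel) on each array for 12 probe sets; points are arrays labelled by replicate number, horizontal lines are group means and side bars are SD (n = 4). The 2 probe sets of arpc1a.S differ in opposite directions, cfl1.L is high in sex-reversed replicates 3 and 4, and cnn3.L and myl12b.L each have 1 low array.

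Transgelin, calponin and smoothelin are thin-filament proteins of smooth muscle, and tropomyosin lies along filaments in all cells. Of 14 probe sets, 6 were higher and 8 lower, with a median difference of −0.09 (log2). An unadjusted p of 0.05 in limma was reached by 1 of them, or 7.14%, against 6.38% of all probe sets. That was tagln.L, at 5.53, 6.31, 6.14 and 6.36 in normal and 5.23, 4.02, 4.91 and 6.26 in sex-reversed ovary. Sex-reversed replicates 1 to 3 lay below every normal array, and replicate 4 lay among the normal values. The difference of −0.98 ± 0.43 (SE), a 1.97-fold lower mean, was at the threshold over all 8 arrays (unadjusted p = 0.04995, adjusted p = 0.779 in limma). Without sex-reversed replicate 4 it was −1.36 ± 0.33 (SE; unadjusted p = 0.00358, adjusted p = 0.605 in limma), and without sex-reversed replicate 2 it was −0.62.

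Other smooth muscle genes shared the pattern of tagln.L only in part. The light chain gene myl9.S shared it: sex-reversed replicates 1 to 3, at 5.92, 6.48 and 6.21, lay below every normal array (6.68 to 7.11). Sex-reversed replicate 4 lay among the normal values there, at 7.05. The homeolog myl9.L did not share the pattern (difference 0.10 ± 0.19, SE). It measured 7.40, 7.58 and 6.93 in sex-reversed replicates 1 to 3, against 6.84 to 7.34 in normal ovary. The actin gene acta2.L overlapped between the groups (difference −0.08 ± 0.27, SE). The homeolog tagln.S measured 6.19, 5.43, 5.75 and 6.16 in normal and 6.06, 5.42, 4.96 and 6.02 in sex-reversed ovary, and the groups overlapped (difference −0.27 ± 0.29, SE). The smooth muscle myosin gene myh11.S went the other way, from 4.33 ± 0.43 to 4.80 ± 0.37 (SD, n = 4 each; difference 0.47 ± 0.26, SE). The smoothelin genes smtn.L and smtn.S differed by −0.35 ± 0.30 and 0.22 ± 0.23 (SE), and the calponin genes cnn1.S, cnn2.L and cnn2.S by 0.10, 0.18 and −0.18. The related gene tagln2.S, which is not restricted to muscle, was at 9.56 in both groups. Stroma genes, 6 measured of 8 listed, had 10 of 12 probe sets lower, with list means of 6.42 to 6.92 in normal and 6.16 to 6.58 in sex-reversed ovary. Of these 12, 4 reached an unadjusted p of 0.05 in limma, against 6.38% of all probe sets, and none passed after adjustment. Lower means were found for the collagen genes col1a1.S (−0.98 ± 0.43) and col3a1.S (−1.44 ± 0.48) and for sparc.S, a matrix protein gene (−0.58 ± 0.24), and a higher mean for pdgfra.L, which codes for a receptor (0.70 ± 0.27, all SE). The second probe sets of col3a1.S and pdgfra.L were at −0.08 and −0.12, and the homeolog sparc.L was at 0.03. Probe sets of the fibronectin gene fn1.S, all counted as lower, lay between −0.18 and −0.03. Of smooth muscle genes outside the members only 2 of 12 were measured, at list means of 4.42 to 4.61 and 4.12 to 5.01. The part of either in the tagln.L difference was not tested.

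The acidic calponin gene cnn3.L was steady on 7 arrays and low on 1. It measured 8.65, 8.66, 9.14 and 8.93 in normal and 9.02, 9.03, 9.13 and 5.51 in sex-reversed ovary. Sex-reversed replicate 4 thus lay far below every other array. The difference of −0.67 ± 0.75 (SE) became 0.22 without that array. Among tropomyosins, tpm2.L and tpm2.S differed by −0.22 ± 0.30 and −0.42 ± 0.36 (SE), and tpm3.L and tpm4.L by 0.11 ± 0.28 and 0.24 ± 0.29. All 4 overlapped between groups.

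**Figure D3:**
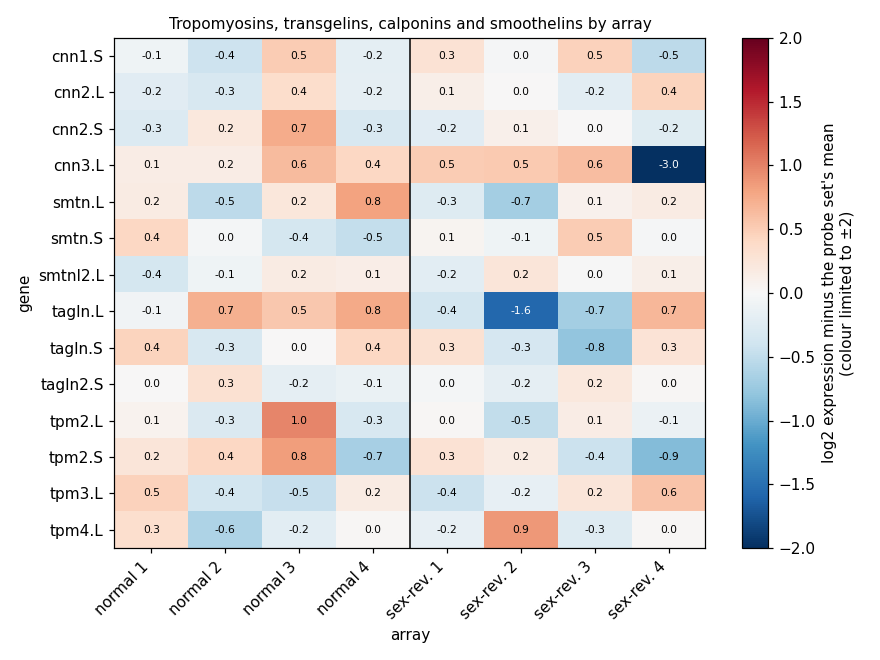
Log2 expression of the 14 tropomyosin, transgelin, calponin and smoothelin probe sets on each of the 8 arrays, with each probe set's own mean subtracted (colour limited to 2 in either direction, digits give the value). The low cells of tagln.L in sex-reversed replicate 2 and of cnn3.L in sex-reversed replicate 4 stand out, and no column is high or low throughout.

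Myosin heavy chains carry the motor, and their 11 probe sets had 5 higher and 6 lower means. The gene myh15.L, of the sarcomeric myosin type, measured 4.73, 4.60, 4.86 and 4.71 in normal and 5.11, 4.97, 5.11 and 4.90 in sex-reversed ovary. The groups did not overlap, with normal replicate 3 just below sex-reversed replicate 4, and the difference was 0.30 ± 0.13 (SE; unadjusted p = 0.0466, adjusted p = 0.779 in limma). The non-muscle myosin gene myh9.L, a motor of cell division and cortical tension, measured 9.22, 9.44, 9.01 and 7.39 in normal and 8.72, 9.27, 7.91 and 8.80 in sex-reversed ovary. Low arrays occurred in both groups, normal replicate 4 and sex-reversed replicate 3, and the difference was −0.09 ± 0.47 (SE). Its relative myh10.S differed by −0.30 ± 0.17 (SE), and by −0.16 without normal replicate 2. Of the striated muscle myosins, a myh6.S probe set had groups that did not overlap (2.79 to 3.15 in normal, 2.60 to 2.75 in sex-reversed ovary), at values below the lower quartile on every array. The other 3 myh6.S probe sets differed by 0.25, −0.02 and −0.04, and myh3.S and the 2 myh8.L probe sets by −0.03, 0.10 and 0.34.

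Regulatory myosin light chains set how the motor is switched on. None of the 9 probe sets of myosin light chains, regulatory or other, reached an unadjusted p of 0.05 in limma over all 8 arrays. The regulatory light chain gene myl12b.L had 2 probe sets with different single-array values. The one ending in _a_at measured 7.72, 8.11, 2.87 and 7.96 in normal and 7.54, 7.72, 7.48 and 7.35 in sex-reversed ovary. The one ending in _at measured 3.24, 3.40, 2.88 and 2.92 in normal and 2.91, 3.48, 2.68 and 5.02 in sex-reversed ovary. Normal replicate 3 was the only low array in the first, and sex-reversed replicate 4 the only high one in the second. Without normal replicate 3 the difference of the first turned from 0.86 to −0.41, and without sex-reversed replicate 4 that of the second turned from 0.41 to −0.09. The smooth muscle light chain genes myl9.L and myl9.S differed by 0.10 ± 0.19 and −0.40 ± 0.24 (SE). Without sex-reversed replicate 4, at 7.05, myl9.S differed by −0.62 ± 0.19 (SE; unadjusted p = 0.0129, adjusted p = 0.685 in limma). The essential light chain gene myl6.S, used in non-muscle and smooth muscle myosin, differed by −0.12 ± 0.19 (SE).

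Unconventional myosins move cargo and membranes rather than building contractile bundles, and their 7 probe sets lay between −0.45 and 0.17. The filopodial myosin gene myo10.2.S measured 8.97, 8.57, 9.27 and 9.28 in normal and 8.79, 8.67, 9.11 and 7.73 in sex-reversed ovary, so that replicate 4 gave most of its −0.45 ± 0.30 (SE). The membrane-linked motor gene myo1c.S was at 9.98 in both groups, while the 2 probe sets of myo1c.L differed by −0.20 and −0.34. The cargo motor genes myo5a.L and myo6.L differed by 0.13 ± 0.19 and 0.07 ± 0.24 (SE).

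Troponins make striated muscle respond to calcium, and all 9 of their intervals stayed within a 2-fold change. The gene tnni1.2.L, an inhibitory troponin of slow muscle, had the smallest p of them and measured 7.42, 7.66, 7.62 and 7.38 in normal and 7.83, 7.93, 7.59 and 7.98 in sex-reversed ovary. Sex-reversed replicate 3 lay among the normal values and the other 3 above them (difference 0.31 ± 0.15, SE; unadjusted p = 0.0611, adjusted p = 0.787 in limma). The rest lay between −0.35 for tnni2.S and 0.33 for tnnc2.S, and 3 of the 9 were below the lower quartile on every array. In all, 11 members were below it on every array, or 13.6%, against 15.1% of all probe sets. They belonged mainly to striated muscle genes (actn2.L, actn3.L, myh6.S, myh8.L, myl1.S, tnnc2.S, tnni2.S, tnni3.L), with cfl2.L and the smooth muscle calponin cnn1.S. Signal depends on the probes as well as on the transcript, and detection was not tested, so differences in such dim probe sets say little.

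Spread between arrays covered a similar range in the actin and myosin genes and in the array at large. The median distance between the highest and lowest array was 0.95 (log2), against 0.92 over all probe sets, and it passed a 2-fold change in 36 of 81, or 44.4%, against 44.0% of all. The 14 members above the upper quartile on every array, among them actg1.L, cfl1.S, pfn1.S, myl6.S and the Arp2/3 genes, had a median distance of 0.65. In the thin-filament genes 10 of 14 passed 2-fold. Distances above 4-fold occurred in 8 members: both probe sets of myl12b.L, acta1.S, cnn3.L, actr10.L, tagln.L, a probe set of myo1c.L and myh9.L. The widest was 5.24 (log2), or 37.7-fold, in the _a_at probe set of myl12b.L. The share over all probe sets is not given for distances above 4-fold, so the count of 8 is description only.

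**Figure D4:**
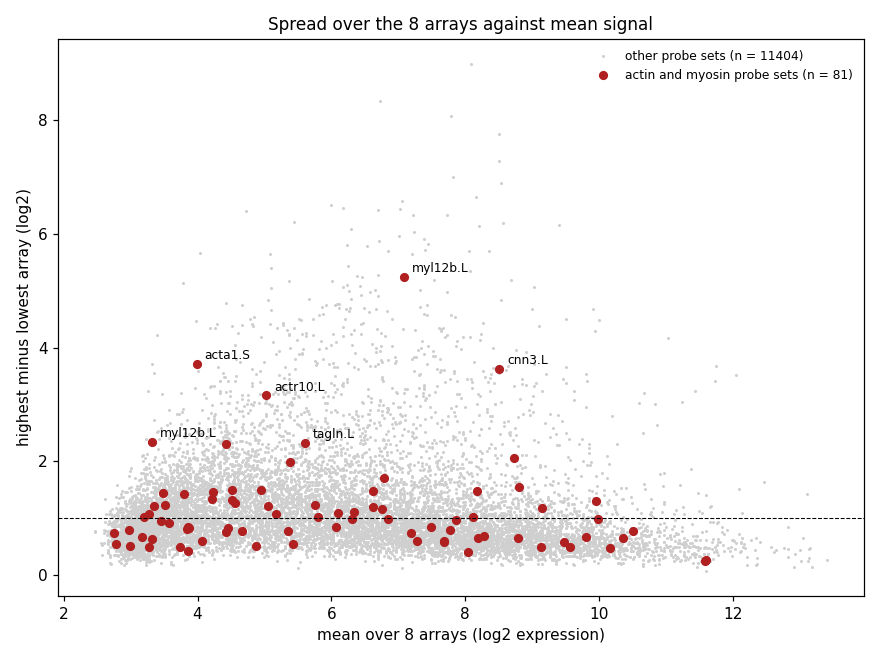
Distance between the highest and lowest of 8 arrays (log2, vertical axis) against the mean over the arrays (log2 expression, horizontal axis) for the 81 actin and myosin probe sets in red and the other 11404 in grey; the dashed line marks a 2-fold distance. The red points spread through the grey cloud, and the 6 widest are named.

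Both homeologs were measured for 12 of the genes, and no pair with an unequal response of L and S copy was called. The test compared the L minus S value per array between the groups in limma, adjusted over all 622 pairs on the array. No member pair passed (0 of 12, lowest adjusted p = 0.765, against 0% of pairs), and none reached an unadjusted p of 0.05, against 5.95% of all pairs. The 95% intervals reached from 0.48 to 1.68 (log2) to either side. A 2-fold unequal response was inside the interval of most pairs, all but cnn2, myl1 and tnnc2. L and S copies had the same sign in 5 of 12 pairs, or 41.7%, against 51.4% of all pairs.

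The pair with the smallest p was cofilin, where cfl1.L minus cfl1.S differed by 0.54 ± 0.31 (SE, unadjusted p = 0.116 in limma) between the groups. It was followed by myl9 at 0.50 ± 0.31 and tagln at −0.71 ± 0.44 (SE). Without sex-reversed replicate 4, 2 pairs reached an unadjusted p of 0.05 in limma: actr10 at 1.58 ± 0.34 (SE; unadjusted p = 0.00197, adjusted p = 0.289) and myl9 at 0.78 ± 0.25 (SE; unadjusted p = 0.0144, adjusted p = 0.645). The share over all pairs in that fit is not given here, so the count of 2 cannot be set against it. For actr10 the L copy in sex-reversed replicate 4 was low at 3.14, and the S copy, at 3.94, was the highest of the sex-reversed values. Of 7 genes with several probe sets under the same symbol, 4 had the same sign throughout (actb.L, myh8.L, myl12b.L and myo1c.L) and 3 did not (actr1a.L, arpc1a.S and myh6.S).

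**Figure D5:**
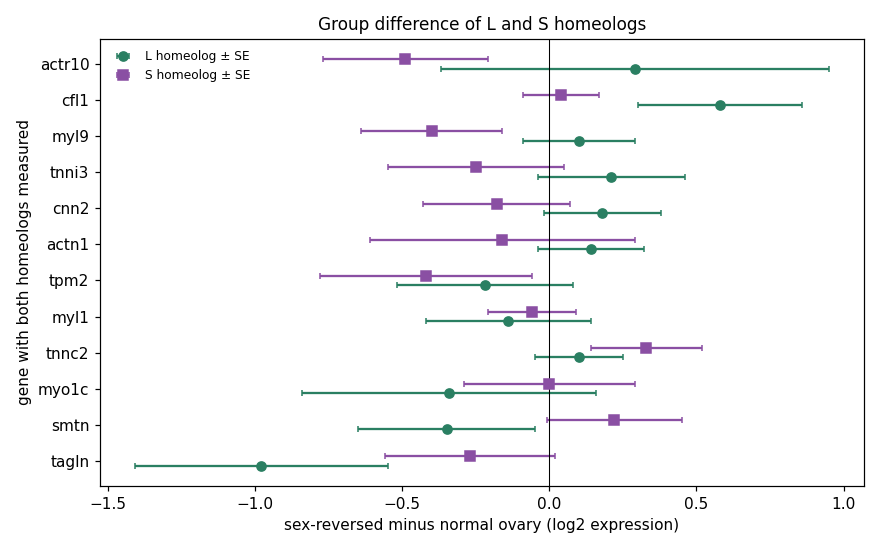
Difference between sex-reversed and normal ovary (log2, horizontal axis, with SE from limma on 4 against 4 arrays) of the L homeolog (circles) and the S homeolog (squares) for the 12 genes with both measured, ordered by the L minus S difference. In 5 genes both copies lie on the same side of 0.

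Other regulators of the actin cytoskeleton, such as formins and cofilin kinases, were followed through 65 probe sets of 43 genes out of 97 listed. None passed the adjusted threshold in limma, and 2 of 65, or 3.08%, reached an unadjusted p of 0.05, against 6.38% of all probe sets. One of 2 probe sets of the spectrin gene sptan1.L, part of the membrane skeleton, measured 4.65, 4.41, 4.86 and 4.30 in normal and 5.06, 4.87, 5.0 and 5.07 in sex-reversed ovary (difference 0.44 ± 0.16, SE; adjusted p = 0.733). Its groups did not overlap. The second sptan1.L probe set went the other way, at −0.27 ± 0.22 (SE), and its groups overlapped. The filament elongation gene enah.L measured 5.62, 5.32, 6.02 and 6.06 in normal and 5.44, 5.05, 4.96 and 5.38 in sex-reversed ovary, with overlap (−0.55 ± 0.21, SE; adjusted p = 0.753 in limma). The next in order of p were the cofilin kinase gene limk2.L at 0.47 ± 0.22, a probe set of the contractile ring gene anln.L at 0.32 ± 0.18, a probe set of the small GTPase gene cdc42.L at −0.33 ± 0.20 and the cofilin partner gene wdr1.L at 0.35 ± 0.21 (SE). The second anln.L probe set was at −0.04, and the other 4 of cdc42.L were at −0.25, 0.15, −0.15 and −0.06. With 1 array left out these values came to 0.28 for limk2.L and 0.17 for anln.L (both without normal replicate 1), −0.15 for cdc42.L (without normal replicate 2) and 0.22 for wdr1.L (without sex-reversed replicate 4). The homeologs sptan1.S, enah.S and wdr1.S differed by 0.21 ± 0.20, 0.01 ± 0.63 and −0.11 ± 0.16 (SE). The median over all 65 probe sets of these regulators was 0.04 (log2).

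The 8 arrays also fell into 2 sets of 4 by clustering on the probe sets outside the members: normal replicates 1 and 4 with sex-reversed replicates 3 and 4, and the remaining arrays. Without a test, since the sets were found in these data, 4 of 81 members, or 4.94%, had no overlap between the sets, against 7.50% of all probe sets. Among them were actn1.S, at means of 5.98 and 4.78 in the first and second set, and tpm3.L, at 8.47 and 7.76. With the array set as a term in limma, 5 of 81 members, or 6.17%, reached an unadjusted p of 0.05, against 7.91% of all probe sets, and 0 passed after adjustment (lowest adjusted p = 0.498). Of those 5, 3 were shared with the fit without this term (actb.L, capza1.L and lcp1.S), and cfl1.L and acta1.S were added.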

How the data were processed

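RNA of 8 ovaries was measured on Affymetrix arrays, 1 array each, with biotin-labelled target per the labels' protocols. The deposited table holds 1 log2 expression value for each probe set and array, and the submitters' processing notes name RMA without a version. The base of the log is not stated there; 2 was taken, as RMA gives. RMA brings all arrays to one distribution, which hides a shift common to most transcripts. The array carries X. laevis probes, and a muelleri allele that differs in sequence can read low on them. Kinship of the animals is not described, and p-values rest on the spread of these 8 arrays, which may be partly technical.

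Symbols were those of the platform's annotation, possibly outdated. It listed 1 symbol for 6798 of the 11485 probe sets, several for 110 and none for 4577. Groups were fitted on the whole table with limma 3.58.1 in R 4.3.3 (lmFit, eBayes, two-sided, no covariate, no filter), with Benjamini-Hochberg adjustment over all probe sets. For homeologs, the probe set with the highest mean was used for each copy. Code was tested on simulated data. Figures used Python 3.11.15 and matplotlib 3.10.9.

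The members, roles and lists were chosen with earlier results of these data known. Named genes were members under an unadjusted p of 0.05, the 10 with the widest range, the smallest p of each remaining role, a fixed set of 38 genes of which 25 were measured, and the 6 other regulators of smallest p; further members are named to complete a role. Alternatives were the replicate block, 2 normalizations, a filter, another prior, array weights, 1 probe set per gene, sex-reversed replicate 4 in the normal group, each array left out, a looser threshold and, added after seeing the data, the array set.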

Additional observations from a re-analysis of the deposited data

Results flagged for a closer look

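Among 162 groups of 4 values, 5 (3.09%) held 1 array far from the other 3, judged by its gap to the nearest value relative to the whole range of the group; chance alone gives about 1 in 20. For cnn3.L, sex-reversed replicate 4 measured 5.51, against 9.02 to 9.13 in its group and 8.65 to 9.14 in the other. For the _a_at probe set of myl12b.L, normal replicate 3 measured 2.87, against 7.72 to 8.11 in its group and 7.35 to 7.72 in the other. The remaining 3 were small high values. They were actr1a.L in sex-reversed replicate 2 at 8.54 (others 8.15 to 8.18), arpc5.L in sex-reversed replicate 4 at 8.58 (others 8.25 to 8.31) and the dim tnnc2.L in normal replicate 3 at 3.81 (others 3.65). Without the array in question, the differences between the groups were 0.22 for cnn3.L, −0.41 for myl12b.L, 0.05 for actr1a.L, 0.08 for arpc5.L and 0.14 for tnnc2.L.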

How the results depend on the processing

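No member passed the adjusted threshold under any of the 10 alternatives or with any 1 of 8 arrays left out. Nor did a member pair of homeologs, which was not run with 1 probe set per gene or the looser threshold. The members at an unadjusted p of 0.05, 5 in the report, were 3 after quantile normalization (3.70%, against 6.29% of all probe sets), 3 with probe sets of mean 5 or more (6.38%, against 6.65%), 3 with 1 probe set per gene (4.29%, against 6.18%) and 8 with sex-reversed replicate 4 in the normal group (9.88%, against 6.69%). With 1 array left out they were 1 to 10 (1.23 to 12.3%, against 5.11 to 6.93%). Members without overlap, also 5, were 3 with the filter (6.38%, against 4.21% of all probe sets) and 2 with 1 probe set per gene (2.86%, against 3.9%). They were 8 with sex-reversed replicate 4 moved (9.88%, against 5.29%). With 1 array left out they were 5 to 9 (6.17 to 11.1%, against 6.36 to 8.26%). Homeolog pairs at an unadjusted p of 0.05, 0 in the report, were 3 with sex-reversed replicate 4 moved and 0 to 2 with 1 array left out. The share over all pairs is not given for these settings, so these counts are description only. Other regulators, 2 in the report, were 1 with the filter, 1 with the trended prior and 1 to 2 with 1 array left out. The shares over all probe sets were 6.65%, 6.26% and 5.11 to 6.93% in these settings. The median member difference ran from −0.045 to 0.003 with 1 array left out. The causes were not tested; the filter and the choice of 1 probe set test 47 and 70 members.

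Whether the replicate numbers pair the samples could not be decided. Same-numbered arrays correlated at −0.19, 0.24, −0.19 and 0.17 in their deviations from the group means. The normal arrays that correlated best with sex-reversed replicates 1, 2, 3 and 4 were replicates 2, 2, 1 and 4. With the replicate block 4 members, or 4.94%, reached an unadjusted p of 0.05, against 5.77% of all probe sets, 2 of them shared with the fit without it.

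Of 731 values of named genes under the alternatives, 691 kept their direction and 40 did not. With sex-reversed replicate 4 in the normal group, the second actb.L probe set was at 0.05, cfl1.S at −0.01, cnn2.L at −0.04, cnn3.L at 0.88, the _at probe set of myl12b.L at −0.47, myo1c.L at 0.18, pfn2.L at 0.07, tpm2.S at 0.01 and tpm3.L at −0.19. With array weights myh9.L was at 0.03, and with quantile normalization or median centring tagln2.S was at 0.01. With 1 array left out, acta2.L ran from −0.23 to 0.13, actb.L from −0.16 to 0.01, actn1.S from −0.44 to 0.22, actr10.L from −0.09 to 0.96, cfl1.S from 0.00 to 0.08, cnn1.S from −0.04 to 0.29, cnn2.S from −0.32 to 0.04 and cnn3.L from −0.99 to 0.22. Likewise myh9.L ran from −0.55 to 0.17, myl12b.L from −0.09 to 0.69 and from −0.41 to 1.34, myl9.L from −0.01 to 0.20, myo1c.L from −0.73 to 0.02 and pfn1.S from −0.03 to 0.19. The ranges were −0.07 to 0.10 for tagln2.S, −0.37 to 0.07 for tpm2.L, −0.06 to 0.28 for tpm3.L and −0.02 to 0.39 for tpm4.L. In all, 35 named probe sets moved by over 1.5 times with 1 array left out. Among those that kept their sign, tpm2.S ran from −0.71 (without normal replicate 4) to −0.20 (without sex-reversed replicate 4), tagln.S from −0.42 (without normal replicate 2) to −0.05 (without sex-reversed replicate 3) and pfn2.L from −0.35 to −0.03 (without sex-reversed replicates 1 and 3). The gene vcl.S ran from 0.07 to 0.42 (without normal replicates 1 and 2), myl6.S from −0.28 to −0.02 (without normal replicates 1 and 4), myl9.S from −0.62 to −0.24 (without sex-reversed replicates 4 and 1), capzb.S from 0.07 to 0.22 and cnn2.L from 0.06 to 0.33.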
